A study of Mus musculus with 11 samples.

Results

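Glucose and lactate cross the cell membrane through 2 small families of carriers, and 4 of their genes were followed here in E12.5 mouse forebrain: Slc2a1 and Slc2a3, which encode the glucose transporters GLUT1 and GLUT3, and Slc16a1 and Slc16a3, which encode the monocarboxylate transporters MCT1 and MCT4. They were picked by gene symbol, with earlier results of the same knockout and wild-type libraries in view, and all 4 of the 20475 genes listed per table were found in both tables. All 4 also passed the filter of a mean of at least 10 normalized counts. Because the germline contrast was known when they were picked, its values for these genes are given as a description, with no test.

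GLUT1 carries glucose into most embryonic cells and across the endothelium of brain vessels, and GLUT3 is the high-affinity carrier best known from neurons. MCT1 moves lactate, pyruvate and ketone bodies in either direction, whereas MCT4 is known for lactate export from cells that rely on glycolysis. Slc2a1, Slc2a3 and Slc16a3 are textbook targets of hypoxia-inducible factor (HIF), the transcription factor that accumulates at low oxygen, and Slc16a1 was taken as the member outside that set.

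Poly(A) RNA was sequenced from Kif20a wild-type and knockout embryos at E12.5 in 2 comparisons, 11 libraries in all. In the germline comparison, 3 libraries from wild-type and 3 from homozygous knockout-first embryos were measured. The knockout-first allele carries a LacZ and neomycin cassette in Kif20a, comes from a single targeted embryonic stem cell clone, was bred through C57BL/6J mice, and is present in every cell of the embryo. In the inducible comparison, 2 libraries came from Kif20a fl/fl controls and 3 from Nestin-CreERT2; Kif20a fl/fl embryos. Tamoxifen was given to the dams of both of these groups at E9.5 and E10.5, so the controls were exposed to the drug but lacked the recombinase, which acts in Nestin-expressing progenitors. The labels name the tissue forebrain, the study's text names cortex, and nothing in the labels says whether each library was 1 embryo. The spread between libraries may therefore be partly technical.

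The values are normalized counts, that is reads on the exons of a gene after the authors equalized the libraries of a table with the trimmed mean of M-values. No division by gene length was made, and the 2 tables were normalized separately, so no level was compared between them. Fold changes and their standard errors came from limma on log2(normalized count + 1). A gene was called where the fold change was at least 1.5 and the unadjusted P at most 0.05. At these thresholds 289 of 13938 germline genes were called higher (2.07%) and 93 lower (0.667%), and 113 of 14081 inducible genes were called higher (0.802%) and 69 lower (0.49%). After Benjamini-Hochberg adjustment 1 germline gene (0.00717%) and 5 inducible genes (0.0355%) had an adjusted p under 0.05 in limma, and none of the 4 transporters was among those of the inducible table.

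Kif20a itself was reduced in every knockout library. The 3 germline knockouts kept 16.5%, 15.1% and 20.3% of the wild-type mean (log2 fold change -2.54, adjusted p = 0.00845, limma), so the 3 libraries were alike at the targeted gene. The study places this remaining signal in the first exons of Kif20a and states that the cassette disrupts the full-length transcript. The germline percentages are thus not alike in kind to the inducible ones. The inducible knockouts kept 65.1%, 60.7% and 59.4% (log2 fold change -0.70, adjusted p = 0.0107, limma). Forebrain markers were present in all libraries of both tables. Germline knockout replicate 2 stood apart from the other libraries, at 91.2 on a first principal component that held 58% of the variance, with the other 5 between -38.4 and 3.84.

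The 4 genes lie on 4 chromosomes. In NCBIM37, the assembly also called mm9 to which the authors aligned, Slc2a1 spans chr4:118781316-118809935 on the plus strand and Slc2a3 chr6:122677827-122751658 on the minus strand (GENCODE M1). Slc16a1 spans chr3:104442591-104462385 and Slc16a3 chr11:120809794-120822182, both on the plus strand. Slc16a3 shares up to 831 exon bases with Csnk1d on the opposite strand, and whether reads were counted by strand is not given in the sources used here, so its counts may hold Csnk1d reads. Csnk1d itself averaged 2367 in wild-type and 2377 in knockout germline libraries, a log2 fold change of 0.0013. Slc2a1 shares 105 exon bases with the minus-strand model Gm12868, and the other 2 genes share none.

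HIF binds the core letters ACGTG or GCGTG, and the stretch just ahead of the start site of 3 of the genes is shown because Slc2a1 and Slc16a3 had large and Slc16a1 small differences in the germline knockouts, as given further on. The sequences are the 250 bases before the start site from RefSeq in GRCm38.p6, a later assembly than that of the counts, all read on the plus strand, at chr4:119108495-119108744 for Slc2a1, chr3:104638414-104638663 for Slc16a1 and chr11:120948817-120949066 for Slc16a3. Capitals mark the core letters on either strand, so a minus-strand copy reads CACGT or CACGC. Slc2a3 was not in the table of promoters used here.
Slc2a1: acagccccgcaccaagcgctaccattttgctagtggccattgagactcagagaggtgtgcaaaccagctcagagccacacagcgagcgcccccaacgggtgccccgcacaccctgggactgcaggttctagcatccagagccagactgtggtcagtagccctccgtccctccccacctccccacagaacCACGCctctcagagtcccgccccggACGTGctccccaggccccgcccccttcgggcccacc
Slc16a1: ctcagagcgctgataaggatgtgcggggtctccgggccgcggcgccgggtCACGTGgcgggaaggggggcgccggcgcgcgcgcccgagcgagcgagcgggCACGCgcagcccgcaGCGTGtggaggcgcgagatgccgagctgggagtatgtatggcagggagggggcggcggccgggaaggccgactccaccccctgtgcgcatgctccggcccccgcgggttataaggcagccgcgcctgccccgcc
Slc16a3: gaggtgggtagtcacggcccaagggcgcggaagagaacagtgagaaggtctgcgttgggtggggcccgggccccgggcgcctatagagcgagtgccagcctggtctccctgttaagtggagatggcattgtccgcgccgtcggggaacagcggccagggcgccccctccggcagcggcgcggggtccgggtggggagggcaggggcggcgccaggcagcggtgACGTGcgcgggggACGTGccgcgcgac

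In the window from 250 bases before to 50 after the start, Slc2a1 held 2 matches, a GCGTG on the minus strand at -61 and an ACGTG on the plus strand at -36. Slc16a3 also held 2, both ACGTG on the plus strand, at -27 and -14. Slc16a1 held 5, of which the pair at -200 and -199 are the same CACGTG palindrome read from both strands, with the others at -149, -134 and 21. Of 32851 promoters of this length, 43.8% held at least 1 match, 20.6% at least 2 and 1.66% at least 5. Of these 3 genes the one with the most matches thus had the smallest germline difference, and short letters of this kind are a description of the window and not binding sites.

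Among the glucose transporters, Slc2a1 was the more abundant. Its germline counts were 958, 968 and 1287 in wild-type replicates 1 to 3, against 5247, 9296 and 1223 in knockout replicates 1 to 3. Knockout replicates 1 and 2 lay far above every wild-type library, but replicate 3 lay inside the wild-type range, so the groups overlapped. The means were 1071 ± 187 and 5255 ± 4036 (SD, n = 3 libraries each). The log2 fold change, a difference between the means of log2 values and not of the counts above, was 1.88 (standard error 0.67), which is 3.68-fold.

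For Slc2a3 the germline wild-type libraries gave normalized counts of 207, 225 and 293, against 2605, 2950.0 and 312 for the knockouts. The groups did not overlap, but knockout replicate 3 exceeded the highest wild-type library only narrowly, while replicates 1 and 2 were 10.8-fold and 12.2-fold above the wild-type mean. The means were 241 ± 45.4 and 1956 ± 1434 (SD, n = 3), and the log2 fold change was 2.48 (standard error 0.81).

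Of the monocarboxylate transporters, Slc16a3 had a germline log2 fold change close to that of Slc2a3. Wild-type germline libraries gave it normalized counts of 134, 229 and 218, and the knockouts 2530.4, 1710.0 and 349. All 3 knockouts lay above all wild-type libraries, replicate 3 by the smallest margin, at 1.8-fold of the wild-type mean. The means were 194 ± 52.2 and 1530 ± 1102 (SD, n = 3), with a log2 fold change of 2.60 (standard error 0.69).

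Slc16a1 was steadier, with normalized counts of 824, 753 and 823 among wild-type germline libraries against 1212, 964 and 897 among the knockouts. The knockouts were again all higher without overlap, but here the largest difference was 1.52-fold, in replicate 1. The means were 799.9 ± 41.0 and 1025 ± 166 (SD, n = 3). The fold change of 1.27 (log2 fold change 0.35, standard error 0.15) was below 1.5, unlike those of the other 3 genes.

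Thus 3 of the 4 genes had a fold change above 1.5 in the germline knockouts and 1 did not, and for 3 of the 4 the groups did not overlap. Over all genes tested, 2.07% were called higher, 5.9% did not overlap with the knockouts higher, and 7.55% did not with the knockouts lower. Nothing is read from these shares, and no call is given for the 4 genes, since they were picked with this contrast known. The 2 counts did not name the same 3 genes, because the groups of Slc2a1 overlapped in spite of its fold change and those of Slc16a1 did not.

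**Figure D1:**
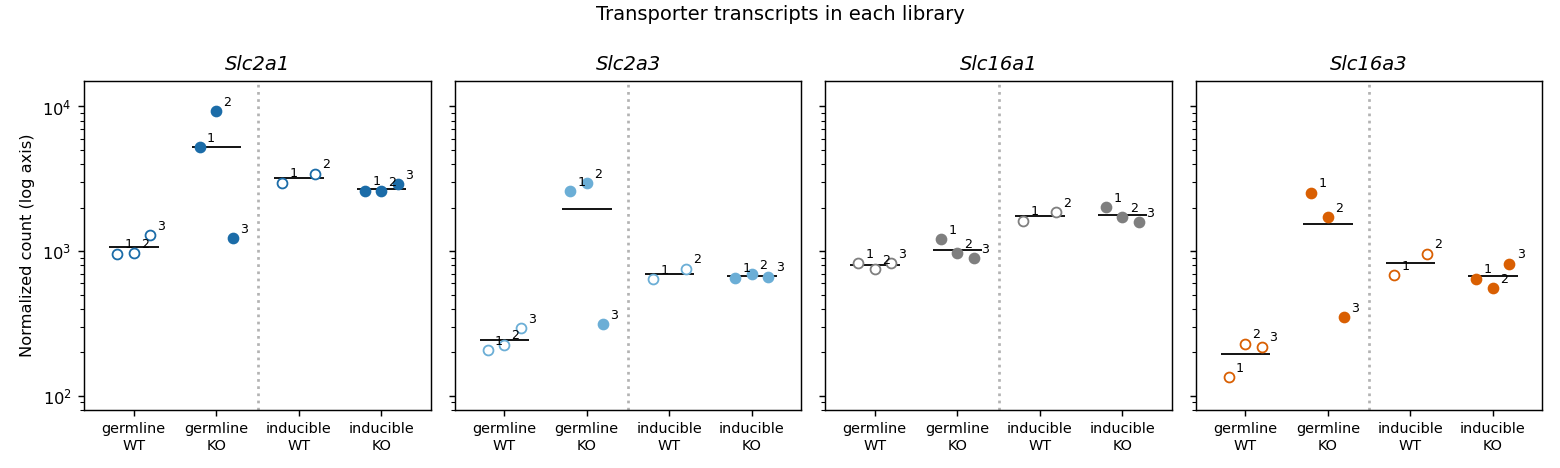
Normalized counts of Slc2a1, Slc2a3, Slc16a1 and Slc16a3 in each library on a log axis, with wild-type libraries as open and knockout libraries as filled circles, replicate numbers beside them and group means as lines. The dotted line separates the 2 tables, whose levels are not comparable. Germline knockout replicates 1 and 2 sit far above wild-type for 3 of the genes, replicate 3 sits at or near the wild-type range, and the inducible groups sit close together.

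Knockout replicate 3 was the lowest of the 3 germline knockouts for all 4 genes. Its log2 difference from the wild-type mean was 0.21 for Slc2a1, 0.39 for Slc2a3, 0.17 for Slc16a1 and 0.88 for Slc16a3. The glucose transporters peaked in replicate 2, at 3.13 for Slc2a1 and 3.62 for Slc2a3 on this scale, against 2.30 and 3.44 in replicate 1. The monocarboxylate transporters peaked in replicate 1, at 0.60 for Slc16a1 and 3.74 for Slc16a3, against 0.27 and 3.17 in replicate 2. The order of the first 2 replicates was thus opposite in the 2 families, although each is a difference between single libraries with no replicate of its own. Among all genes tested replicate 3 was the lowest of the knockouts in 30.1%.

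Leaving out single libraries changed the folds. Without knockout replicate 3 the log2 fold changes were 2.72 for Slc2a1, 3.53 for Slc2a3 and 3.46 for Slc16a3, or 6.58-fold, 11.6-fold and 11-fold. Without knockout replicate 2 they were 1.26, 1.92 and 2.31, and without knockout replicate 1 they were 1.67, 2.00 and 2.03. Over the 6 fits that left out 1 library, Slc2a1 ranged from 2.39-fold to 6.58-fold, Slc2a3 from 3.77-fold to 11.6-fold and Slc16a3 from 4.08-fold to 11-fold. Slc16a1 lay between 0.22 and 0.44 on the log2 scale, at most 1.35-fold. The order of Slc2a3 and Slc16a3 depended on the library left out.

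**Figure D2:**
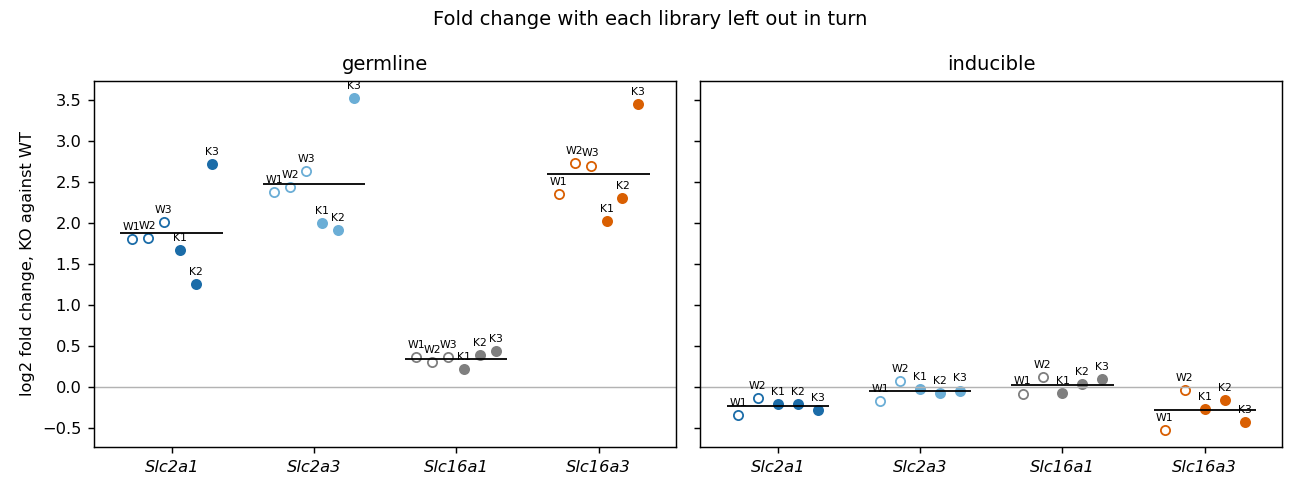
Log2 fold change of each transporter, knockout against wild-type, with each library left out in turn (W for wild-type and K for knockout with the replicate number, open and filled circles) and with all libraries (line). Germline values for Slc2a1 run from 1.26 to 2.72, whereas the inducible values of all 4 genes stay within -0.53 and 0.12.

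The 3 hypoxia-linked genes were set against Slc16a1 within each library, a difference that does not depend on how the libraries were scaled to each other. On the log2 scale and relative to the wild-type mean, the mean of Slc2a1, Slc2a3 and Slc16a3 minus Slc16a1 was -0.33, 0.11 and 0.22 in the germline wild-type libraries. It was 2.56, 3.04 and 0.33 in the knockouts, so replicates 1 and 2 were well apart from all wild-type libraries and replicate 3 exceeded the highest of them by about the distance that separates wild-type libraries 2 and 3. The mean difference between groups was 1.98, from 1.44 without knockout replicate 2 to 2.80 without knockout replicate 3. For the inducible table this quantity was -0.055 and 0.055 in wild-type libraries against -0.44, -0.26 and 0.066 in knockouts, a mean difference of -0.21 with overlapping groups.

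**Figure D3:**
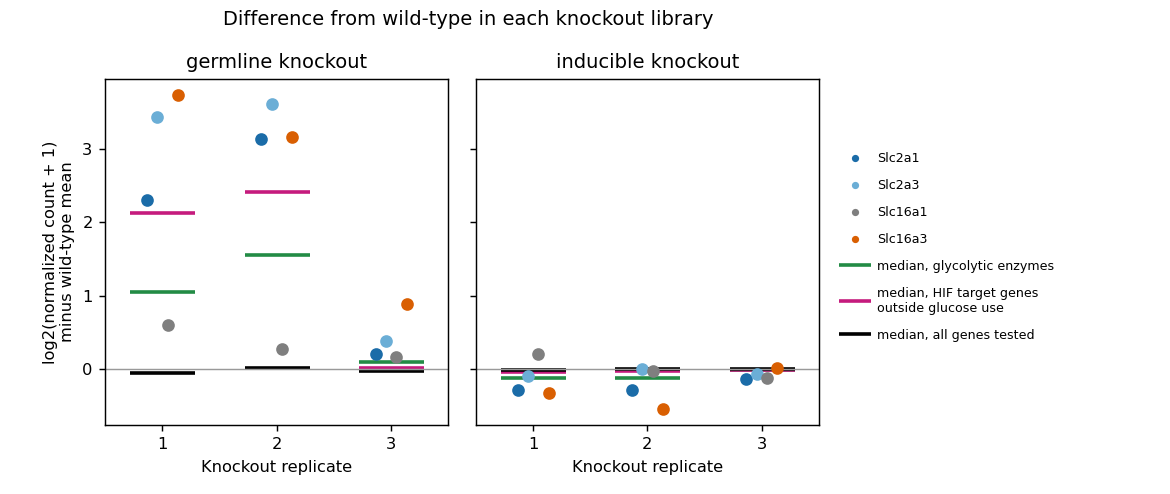
Difference of each knockout library from the mean of its wild-type libraries, in log2(normalized count + 1), for the 4 transporters (points) and as medians of 18 glycolytic enzymes, of HIF target genes outside glucose use and of all genes tested (bars). In germline replicates 1 and 2 the hypoxia-linked transporters lie between 2.30 and 3.74 and Slc16a1 at 0.60 and 0.27, and all medians are near 0 in replicate 3.

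Divided by exon length, the order of levels in the germline wild-type libraries was Slc2a1 at 375 ± 65.5, Slc16a1 at 181 ± 9.26, Slc16a3 at 36.4 ± 9.82 and Slc2a3 at 33.3 ± 6.27 normalized counts per kilobase of exon (SD, n = 3). The ranges of Slc16a3 (25.2 to 43.1) and Slc2a3 (28.5 to 40.4) overlapped, and the other neighbours in the order did not. The inducible wild-type libraries gave 1120 for Slc2a1, 393 for Slc16a1, 154 for Slc16a3 and 96.3 for Slc2a3 per kilobase (means, n = 2), in the same order.

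The ratio of Slc16a3 to Slc16a1, both per exon base, compares the exporter MCT4 with MCT1 within a library. Germline wild-type ratios were 0.135, 0.254 and 0.221, against 1.74, 1.48 and 0.323 in the knockouts. Slc16a3 thus exceeded Slc16a1 per exon base in knockout replicates 1 and 2 and in no other germline library. Inducible wild-type ratios were 0.351 and 0.429, against 0.268, 0.269 and 0.428 in the knockouts, with overlapping groups.

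The ratio of Slc2a1 to Slc2a3 per exon base was 11.8, 11.0 and 11.2 in the germline wild-type libraries, closely alike. It was 5.11, 8.0 and 9.94 in the knockouts, all below wild-type, so Slc2a3 differed more than Slc2a1 from wild-type in each knockout library, replicate 3 included. The inducible wild-type ratios were 11.8 and 11.5 and the knockout ratios 10.2, 9.51 and 11.1, also all below wild-type though by less. The 2 tables reached this differently. Both genes had positive log2 fold changes in the germline (1.88 for Slc2a1 and 2.48 for Slc2a3). In the inducible knockouts Slc2a1 was lower (-0.24) and Slc2a3 nearly level (-0.051). How often other pairs of genes have such ratios was not counted.

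**Figure D4:**
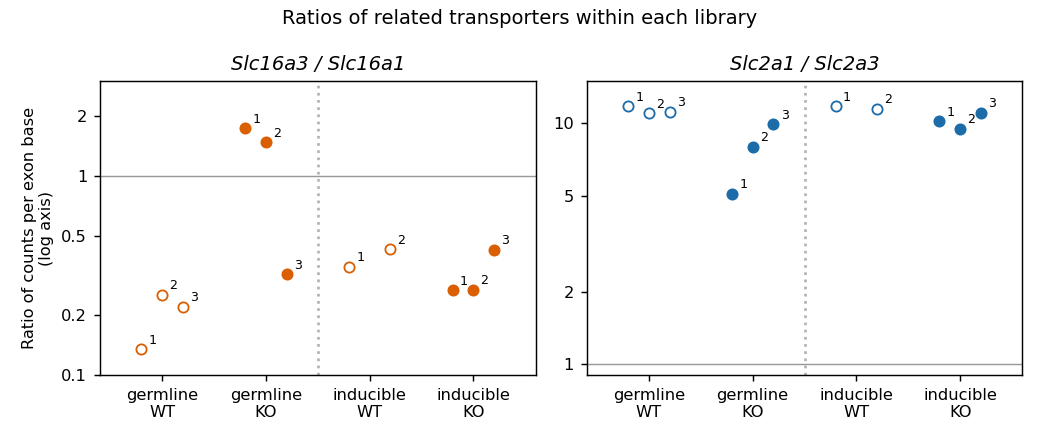
Ratios within each library of Slc16a3 to Slc16a1 and of Slc2a1 to Slc2a3, as counts per exon base on log axes, with wild-type libraries open, knockout libraries filled, replicate numbers beside them and a line at 1. Slc16a3 exceeds Slc16a1 only in germline knockout replicates 1 and 2. The Slc2a1 to Slc2a3 ratio is below the wild-type values in all 6 knockout libraries. By mean log2 difference Slc2a3 was raised more than Slc2a1 in the germline, whereas Slc2a1 was lower in the inducible knockouts.

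In the inducible knockouts none of the 4 genes was called. Since the genes were picked with earlier results of these libraries in view, this and the intervals that follow are a description too. Slc2a1 counts were 2969.7 and 3428 for wild-type against 2620, 2605 and 2904 for knockout replicates 1 to 3. All knockouts were lower than both wild-type libraries, with a log2 fold change of -0.24 (standard error 0.080, 95% interval -0.42 to -0.050), which is 0.848-fold and within the 1.5-fold threshold. Groups that do not overlap with the knockouts lower made up 12.2% of all genes tested, and with the knockouts higher 10.4%.

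For Slc2a3 the inducible wild-type libraries gave 640.4 and 755 normalized counts against 653, 695 and 666 for the knockouts, with overlapping groups and a log2 fold change of -0.051 (95% interval -0.26 to 0.16). Slc16a1 counts were 1619 and 1862 for wild-type against 2003, 1712 and 1590.0 for knockouts, and its log2 fold change was 0.019 (95% interval -0.23 to 0.27). The knockout libraries of Slc16a1 lay on both sides of the wild-type pair. Slc16a3 counts were 683 and 959 for wild-type against 645, 554 and 817 for knockouts, a log2 fold change of -0.29 (95% interval -0.73 to 0.16). For Slc2a3, Slc16a1 and Slc16a3 the interval included 0, and for each of the 4 genes the upper bound was at most 0.27 on the log2 scale.

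Neighbours of the 4 genes in the pathway were read from lists written from general knowledge with earlier results of these data known. The shares of their genes that were called are therefore a description. Basigin (Bsg), the chaperone that MCT1 and MCT4 need to reach the membrane, gave germline counts of 2477, 2372 and 2137 for wild-type against 3488, 5162 and 2281 for knockouts. Replicates 1 and 2 were high as for the transporters, but the groups overlapped and Bsg was not called (log2 fold change 0.57, standard error 0.28). Embigin (Emb), an alternative partner of monocarboxylate transporters, had a log2 fold change of 0.044 with overlapping groups.

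Txnip and Arrdc4, arrestin-like proteins that promote removal of GLUT1 from the cell surface, were both called lower in the germline knockouts. Over all genes tested, 0.667% were called lower there, and 7.55% did not overlap with the knockouts lower. Txnip counts were 1066, 928 and 934 for wild-type against 348, 64.0 and 746 for knockouts, a log2 fold change of -1.92 (standard error 0.79). Arrdc4 counts were 395, 379 and 397 for wild-type against 152, 146 and 362 for knockouts (-0.96, standard error 0.35). The groups did not overlap for either gene, and replicate 3 was again the knockout closest to wild-type. Neither call held without wild-type replicate 1, 2 or 3 or knockout replicate 1, which each left 0 of the 4 partner genes called lower. In the inducible knockouts the log2 fold changes were -0.059 for Txnip, 0.031 for Arrdc4, -0.040 for Bsg and -0.089 for Emb, and 0 of these 4 were called.

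Other carriers of the same families were read in the same manner, beside 2.07% called higher and 0.667% lower among all germline genes tested. Of 7 other SLC2 sugar transporters tested, 1 was called higher and 0 lower in the germline knockouts. Slc2a4, which encodes the insulin-regulated GLUT4, had means of 106 and 191 normalized counts (0.83 on the log2 scale). With 1 call per list, nothing is read from the shares. Of 11 other SLC16 genes tested 1 was called higher, Slc16a6, with a log2 fold change of 1.05, and 0 lower. Slc2a4 was called with each single library left out, and the call of Slc16a6 was lost without any 1 of the wild-type libraries or knockout replicate 1. The medians were 0.20 and 0.077, against -0.043 over all genes tested. Of 7 sodium-coupled carriers of the SLC5 family 1 was tested, and it was not called. By limma 0 genes of these 3 lists were called in the inducible knockouts, and 0, 2 and 0 had an unadjusted P not above 0.05.

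Among the enzymes that handle glucose once inside the cell, 11 of 18 were called higher and 0 lower in the germline knockouts, beside 2.07% higher among all genes tested, with a median log2 fold change of 0.87. The 6 largest of the called enzymes were Hk2 (2.01), the hexokinase that traps glucose in the cell, Pfkfb3 (1.93), which makes the activator of phosphofructokinase, Aldoa (1.53), Gpi1 (1.22), Eno1 (1.08) and Pfkl (1.06). Ldha, the lactate dehydrogenase subunit that favours lactate formation, averaged 6370.4 ± 237 in wild-type and 13586 ± 4724 in knockout libraries (SD, n = 3), a log2 fold change of 1.02, while Ldhb, the subunit of oxidative tissues, had -0.080. The ratio of Ldha to Ldhb counts was 3.15, 3.56 and 3.2 for wild-type against 10.9, 6.78 and 4.8 for knockouts. Ldha was close in knockout replicates 1 and 2, at 16659 and 15954. Ldhb was 1526 and 2352 there, so the order of these 2 ratios came mainly from Ldhb in single libraries. Of 10 genes of mitochondrial pyruvate entry 1 was called higher, Pdk1 (1.79), the kinase that turns off pyruvate dehydrogenase, a call lost without wild-type replicate 1 or 2 or knockout replicate 1.

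Genes of the oxygen-sensing pathway were read the same way. Of 10 components, 0 were called in the germline knockouts by limma and 0 had an unadjusted P not above 0.05. The same 3 components, Egln1, Egln3 and Hif3a, were called higher with knockout replicate 3 left out and also with a replicate block, and Egln1 alone with quantile normalization or array weights. These 3 are named after their values were seen. Egln1 and Egln3 encode prolyl hydroxylases that mark HIF for removal. Hif1a, the regulated HIF subunit, had a log2 fold change of 0.0037. Of 18 HIF target genes outside glucose use, 8 were called higher and 0 lower, beside 2.07% higher among all genes tested, with a median of 1.36. For 2 of the 18, Adm and Car9, the wild-type mean was under 10, so they passed the filter only through the knockouts, and without them 7 were called and the median was 1.30. The 6 largest of the called genes were Adm (3.99, from a wild-type mean of 5.98 normalized counts), P4ha2 (3.15), Bnip3 (2.54), the vascular growth factor Vegfa (2.15), Ankrd37 (1.83) and P4ha1 (1.79). All called genes of these lists had an adjusted p of 0.779 (limma, Benjamini-Hochberg adjustment).

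Both lists followed the replicates of the transporters. The median of the glycolytic enzymes was 1.05, 1.56 and 0.099 above wild-type in knockout replicates 1, 2 and 3 on the log2 scale, and that of the HIF target genes 2.13, 2.41 and 0.012. Replicate 3 was the lowest knockout for 17 of the 18 glycolytic enzymes and 16 of the 18 HIF target genes. The number of glycolytic enzymes called fell from 11 to 2, 3 and 5 without wild-type replicates 1, 2 and 3 and to 1 without knockout replicate 1. The HIF target genes called fell from 8 to 2, 3 and 5 without those wild-type libraries and to 1 without knockout replicate 1, and reached 15 without knockout replicate 3. In the inducible knockouts limma called 0 of 18 glycolytic enzymes, 3 of which had an unadjusted P not above 0.05, and their median was -0.099. Of 17 HIF target genes tested there, 1 was called higher, Ndrg1 (0.86), beside 0.802% higher among all genes tested.

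**Figure D5:**
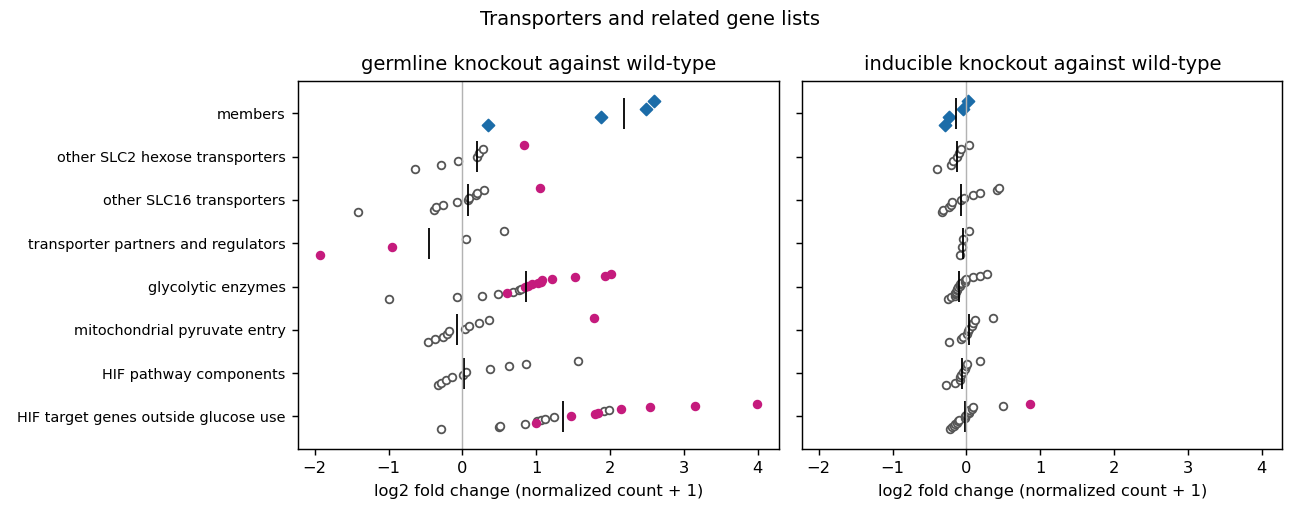
Log2 fold changes of the 4 transporters (members, diamonds) and of the genes of 7 related lists (circles) in the germline and inducible comparisons, with called list genes filled, other list genes open and the median of each list as a line. In the germline panel 11 glycolytic enzymes and 8 HIF target genes are filled on the right, and in the inducible panel 1 gene is filled.

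The genes whose germline pattern was nearest to each transporter were found by the root mean square difference over the 6 libraries in log2(normalized count + 1), after centring on the wild-type mean. For Slc2a1 they were P4ha1 (0.182), Hk2 (0.200) and Tnfaip3 (0.217). For Slc2a3 they were Bnip3 (0.189), Mgarp (0.265) and Ciart (0.276), and for Slc16a3 they were Mgarp (0.143), Esm1 (0.214) and Smtnl2 (0.336), of which Mgarp and Esm1 had few counts, with wild-type means of 12.2 and 8.57. Slc16a1 had closer neighbours, Lactb2 (0.041), Bcl2l12 (0.050) and BC068281 (0.071), as is easier for a gene that varies little. Among the 4 genes themselves the nearest pair was Slc2a3 and Slc16a3 at 0.355, followed by Slc2a1 and Slc2a3 at 0.513, and Slc16a1 was 1.36 to 1.80 from the others.

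Markers of other cell types also differed between the germline libraries, and in bulk RNA a change in the number of cells of a type and a change of RNA per cell cannot be told apart. The summed counts of 10 endothelial markers, which bear on Slc2a1 because GLUT1 is abundant in brain endothelium, lay between 1604 and 3163 for wild-type, against 3549, 833 and 2579 for knockout replicates 1, 2 and 3. None of these markers was at 0 in any library. Slc2a1 was highest, at 9296, in the knockout library with the fewest endothelial counts.

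Neuronal markers (8 genes, which bear on Slc2a3) summed to between 39995 and 44590 for wild-type, against 21670.0, 75768 and 26275 for knockouts. Cranial mesenchyme markers (8 genes) summed to between 4764 and 8398 for wild-type, against 20081, 509 and 10342 for knockouts. Knockout replicates 1 and 2, both with high Slc2a1, Slc2a3 and Slc16a3, thus lay on opposite sides of the wild-type range for endothelial, neuronal and mesenchymal markers. Other lists moved too: in knockout replicate 2 microglial markers summed to 18.2 and erythroid markers to 23808, below the lowest wild-type sums of 402 and 67772, while dorsal forebrain markers summed to 26664, above the highest of 15024. Choroid plexus markers summed to 1085 and 1032 in knockout replicates 1 and 2, below the wild-type range of 1609.6 to 6074. Radial glial markers summed to between 33110 and 39723 in the knockouts and between 35891 and 39482 in the wild-type. This sum hides differences of single genes. Of the 7 markers, 4 had a positive log2 fold change and 1, Fabp7, was called lower, beside 0.667% lower among all genes tested. Fabp7 had means of 5581 and 3071 and a log2 fold change of -0.80. The part of these differences in the transporter values was not tested.

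The sex of the embryos, read from 4 Y-linked genes, was not balanced. Their summed counts were 1714, 9.83 and 4582 in germline wild-type replicates 1 to 3 and 4.49, 0.0 and 1376 in knockout replicates 1 to 3. The level was thus unequal among the libraries with Y-linked counts, and whether each of them held 1 embryo is not given. The knockouts with high transporter counts were thus both nearly without Y-linked counts, as was wild-type replicate 2, and knockout replicate 3 was not. Wild-type replicate 2 had 968 for Slc2a1 and 225 for Slc2a3, within the range of the other wild-type libraries, and 229 for Slc16a3, just above it. The part of sex in the germline transporter values was not tested. In the inducible table these genes summed to at most 4.24 in both wild-type and at least 2389 in all knockout libraries, so sex and genotype cannot be told apart there.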

How the data were processed

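The authors purified poly(A) RNA, aligned reads to mm9 with TopHat (version 1.2.0 in the submitters' processing notes), counted each read once on the RefSeq exons of its gene and scaled the libraries by edgeR's TMM method. The deposited signal consists of normalized counts, which are neither whole numbers nor scaled by gene length or log-transformed, so no count model was used. Their totals no longer show depth, and read depth per library is not given in the sources used here. Of the per-sample columns 0 were left unused.

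Here log2(normalized count + 1) was fitted with limma 3.58.1 (lmFit, then eBayes with a trend) in R 4.3.3, each table alone, for genes averaging 10 or more normalized counts over a table, and two-sided P values were adjusted by the Benjamini-Hochberg method. The pseudocount understates changes of low genes. The fitting code was tested on simulated data with the same dispersion in both groups. For Slc2a1, Slc2a3 and Slc16a3 the germline SD was 72.0% to 76.8% of the mean in knockouts and 17.4% to 26.9% in wild-type. The simulation thus does not show how calls behave under such unequal spread. The study's methods describe length-scaled values, so the filter and pseudocount were chosen for normalized counts. Levels per kilobase used the union of GENCODE M1 exons, whereas reads were counted on RefSeq exons, so the lengths may hold bases that were not counted. With the longest transcript as length, the germline wild-type means were 411 for Slc2a1, 181 for Slc16a1, 44.7 for Slc16a3 and 38.6 for Slc2a3. The order was the same.

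The 4 genes, the pathway and marker lists, and the thresholds were chosen with earlier results of these data known. Named genes are the 4 members, Kif20a, the partners, Hif1a, Ldha and Ldhb, the 3 genes nearest to each member, and up to 6 called genes per list. Csnk1d was named after its values were seen. Alternatives covered the pseudocount, the filter, quantile normalization, array weights, a replicate block and each library left out.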

Additional observations from a re-analysis of the deposited data

Results flagged for a closer look

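For 2 transporters every knockout library differed from its wild-type mean in opposite directions in the 2 comparisons. Slc2a1 had a log2 fold change of 1.88 in the germline and -0.24 in the inducible knockouts, and Slc2a3 had 2.48 and -0.051. Every germline knockout library lay above its wild-type mean for both genes, and every inducible knockout library lay below its own, although Slc2a3 in replicate 2 did so by next to nothing (-0.000107 on the log2 scale). The inducible interval of Slc2a3, from -0.26 to 0.16, included 0. Slc16a3 also had log2 fold changes of opposite sign, 2.60 and -0.29, but its inducible knockout replicate 3 (817) lay between the 2 wild-type libraries (683 and 959). The difference between the comparisons was not tested, since the tables were normalized separately and hold different alleles. Sex and genotype also cannot be told apart in the inducible table. The share of all genes with such opposite directions was not counted, so nothing is read from the number of transporters that had them. For Slc2a1 germline knockout replicate 3 was only 0.21 above the wild-type mean and inside the wild-type range. With 2 or 3 libraries per group no single library could be assessed as an outlier.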

How the results depend on the processing

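Each of the 4 log2 fold changes kept its sign under all 14 germline alternatives, and Slc2a1 and Slc16a3 under all 12 inducible ones. Part of this was fixed in advance. The germline groups of Slc2a3, Slc16a1 and Slc16a3 did not overlap, so leaving out a library could not turn their sign. A changed filter, and in the germline a replicate block, left the log2 fold changes as they were. In the inducible table Slc2a3 was 0.068 without wild-type replicate 2 and Slc16a1 ranged from -0.082 to 0.12 with a library left out. The hypoxia-linked genes minus Slc16a1 stayed between 1.44 and 2.80 (germline) and between -0.35 and -0.096 (inducible). Counts over many genes moved more. Germline lower calls (93) were 180 without a filter and 484 with array weights, and 42 to 642 with a library left out. Germline higher calls (289) were 560 with array weights and 115 to 617 with a library left out. The HIF target genes called (8) were 13 with array weights and 1 to 15 with a library left out, and the glycolytic enzymes (11) were 1 to 15. Inducible lower calls (69) were 145 without a filter, 33 at a mean of at least 50 and 44 to 89 with a library left out, and higher calls (113) were 212, 39 and 80 to 250. An alternative chosen after seeing the data left out germline wild-type replicate 2 and knockout replicate 1, which hold 1572 and 1256 values above 0 and under 0.3. It gave 15 lower and 30 higher calls, 0 glycolytic enzymes and 0 HIF target genes, 1.60 for Slc2a1, 1.96 for Slc2a3, 2.17 for Slc16a3 and 0.18 for Slc16a1, and Slc2a4 was no longer called. The causes were not tested, beyond the fewer libraries.

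Same-numbered libraries were not treated as pairs in the main fits. The study describes wild-type and mutant cortices as littermates, but which libraries shared a litter is not given in the sources used here. Deviations of same-numbered libraries correlated at -0.116, 0.306 and 0.247 (germline) and -0.352 and -0.0513 (inducible). Differently numbered germline pairs ran from -0.357 to 0.334. These values cannot decide on pairing. Deviations were taken within each group, and those of the inducible wild-type libraries mirror each other. With a replicate block the calls were 98 lower and 278 higher (germline) and 53 and 110 (inducible). The inducible table has no wild-type replicate 3, so knockout replicate 3 does not inform the fold changes under the block. Those of the transporters equalled the ones without that library (-0.2883 for Slc2a1 in both). Under the block 3 germline HIF pathway components (Egln1, Egln3 and Hif3a) were called higher, against 0 without the block, and no other list count moved by over 1.5 times. Depth per library is unknown, so no interval for counting error is given.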
